A study of Sus scrofa with 12 samples.

Results

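The 58 genes described here build and control the machinery that segregates chromosomes, and they were measured in the endometrium, the inner lining of the uterus, of gestating sows. The set holds subunits of the kinetochore, of condensin and of cohesin, the proteins of the spindle assembly checkpoint, the chromosomal passenger complex with other mitotic kinases, and TOP2A with MKI67. Members are the genes whose symbol in the deposited table equals a listed symbol. The list was chosen with earlier results of these data known, and it was not tested as a set. All 58 symbols were found among the 20674 genes of the table, and all 58 were among the 15351 genes that passed the filter on low counts. A member had to reach that filter in any 3 libraries, whichever their group.

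The study fed Landrace × Yorkshire sows 4 diets in a factorial layout and sequenced endometrial RNA of 3 libraries per diet, 12 in all. L − N received a low-fiber diet with 3.73% crude fiber and no N-carbamylglutamate (NCG). L + N received the same diet with 0.05% NCG. H − N received a high-fiber diet with 7.46% crude fiber and no NCG, and H + N received this diet with 0.05% NCG. Feeding lasted 114 days of gestation in every group, and NCG is an analog of N-acetylglutamate, the activator of the first step of arginine and urea synthesis. The questions addressed are whether NCG, dietary fiber (DF) or their combination changed the expression of these genes.

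A chromosome is held by the spindle through its kinetochore, a protein assembly built on nucleosomes that carry the histone variant CENP-A. The inner kinetochore binds this chromatin, and the outer kinetochore, whose core is the network of KNL1 with the MIS12 and NDC80 complexes, binds microtubules. Kinetochores without attachment are sensed by the checkpoint kinases TTK and BUB1 and by BUB1B, BUB3 and MAD2L1, which hold back anaphase. Condensin compacts chromosomes for division. Cohesin keeps sister chromatids together until separase, encoded by ESPL1, opens it, while shugoshins protect it at the centromere. Most of these genes are transcribed mainly in dividing cells and peak late in the cell cycle, whereas the cohesin ring also folds interphase chromatin and its genes are expressed in resting cells. In the endometrium, epithelial and stromal cells divide under the control of estrogen and progesterone.

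The total count per library was between 14369781 and 19309724, with a median of 16224088, and the lowest count of any member in any library was 13, for SGO1 in L − N. The 10 most abundant genes took 6.49% to 9.41% of a library, and the mitochondrial genes took 2.65% to 3.97%. All 8 endometrial markers examined (the epithelial genes EPCAM, KRT8, KRT18 and CDH1, the receptors ESR1 and PGR, and HOXA10 and HOXA11) were detected in the libraries and passed the filter. Values are CPM, which are counts scaled to a common library size with TMM factors, and fold changes and tests come from edgeR's quasi-likelihood F test over all 15351 genes with Benjamini-Hochberg adjustment. Differential expression means an adjusted p under 0.05 with an absolute log2 fold change above 1, and passing the adjusted p alone is counted beside it. The titles number the libraries within a group but name no animals, and p-values therefore measure the spread between these libraries. In whole tissue, fewer dividing cells and less RNA per dividing cell cannot be told apart.

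Across both fiber levels, NCG raised 20 of the 58 members by more than 2-fold, and lowered none. The largest fold changes were those of the kinetochore motor CENPE, the cohesin protector SGO2, the outer kinetochore scaffold KNL1, TOP2A, which untangles sister DNA, and CENPF, a protein of the kinetochore corona. The core condensin subunits SMC2 and SMC4 and the checkpoint genes TTK, BUB1 and BUB1B rose as well. In contrast, BUB3, the cohesin subunits SMC1A and RAD21, MIS12, NCAPH2 and CENPM had log2 fold changes between -0.14 and 0.11 and did not pass. The median log2 fold change of NCG was 0.83 over the members and -0.03 over all genes tested, and 56 of the 58 members were positive. With the adjusted p alone, 36 members rose and none fell.

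Among all genes tested, 1.67% rose and 0.13% fell by the rule with a fold change, and 5.67% rose and 1.6% fell with the adjusted p alone. In 27 of the 58 members, every library with NCG lay above every library without it, compared with 3.22% of all genes tested. Leaving out 1 library at a time, between 16 and 29 members were called, and 14 of the 20 (NDC80, KNL1, CENPE, CENPF, BUB1, BUB1B, TTK, SMC2, SMC4, NCAPG, SMC3, SGO1, SGO2 and TOP2A) stayed called each time. Over all genes, 276 were called with every library, and 157 to 340 in these fits. With replicate 3 of L − N left out, CENPA, CENPN, CENPT and MKI67 were no longer called, and CENPC, CENPK, CENPN and CENPT each lost the call without some other libraries.

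**Figure D1:**
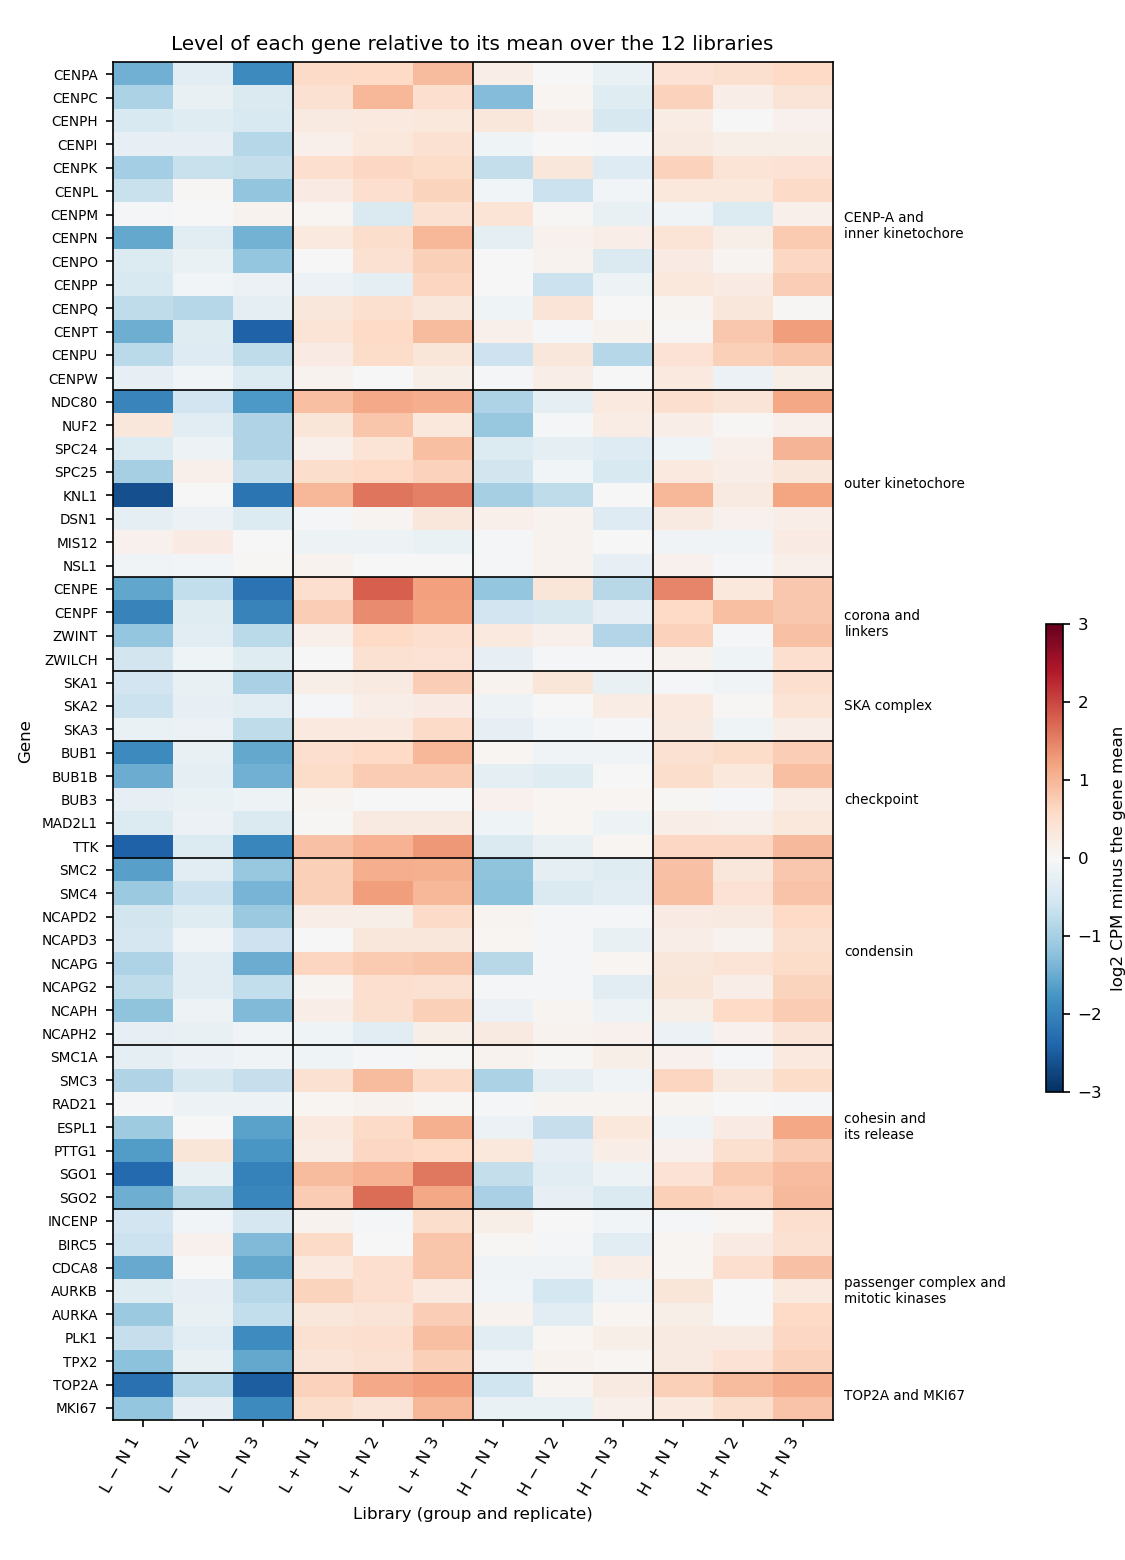
Level of each of the 58 genes in each of the 12 libraries, as log2 CPM minus the mean of the gene over all libraries, with the genes grouped by role and the libraries by group. Most rows run from low values in the 3 L − N libraries to high values in the L + N and H + N libraries, while RAD21, SMC1A, BUB3, MIS12, NSL1 and NCAPH2 vary little.

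TOP2A and MKI67, which encode the DNA topoisomerase of mitotic chromosomes and the Ki-67 protein that coats them and serves as a marker of cycling cells, rose together. TOP2A, on chromosome 12 from 22001300 to 22028452 of Sscrofa11.1, had a CPM of 12.3, 32.2 and 10.5 in L − N, 92.9, 127 and 136 in L + N, 38.5, 61 and 69.4 in H − N and 94.9, 111 and 124 in H + N. All 6 libraries with NCG were above all 6 without it, and all H − N libraries were above all L − N libraries. The log2 fold change with NCG was 1.83 (SE 0.27, adjusted p = 0.00578) over both diets. MKI67, on chromosome 14 from 137266622 to 137296312, had a CPM of 30.8, 58.2 and 18.4 in L − N, 100.3, 91.2 and 138 in L + N, 60.4, 60.1 and 76.7 in H − N and 85, 99.7 and 126 in H + N. Its libraries with NCG did not overlap those without it either, and L − N replicate 2 was the highest of its group for both genes. The log2 fold change of MKI67 with NCG was 1.13 (SE 0.24, adjusted p = 0.0180).

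Of the 14 genes of CENP-A chromatin and the inner kinetochore, 9 rose with NCG by the adjusted p, 5 of them more than 2-fold (CENPA, CENPC, CENPK, CENPN and CENPT). CENPA, on chromosome 3 from 112263912 to 112272638, encodes the centromeric histone itself and had a CPM of 4.07, 8.97 and 2.96 in L − N, 16.5, 16.8 and 21.5 in L + N, 12.7, 11.2 and 9.72 in H − N and 15.1, 15.5 and 16.9 in H + N. The groups with NCG lay above both groups without it, and H − N lay above L − N. With NCG it changed by 1.13 (SE 0.23, adjusted p = 0.0166) on the log2 scale. CENPC, on chromosome 8 from 65237825 to 65315788, links CENP-A nucleosomes to the outer kinetochore and had a CPM of 11, 17.9 and 15.5 in L − N, 29.1, 42.2 and 30.018 in L + N, 8.55, 22.1 and 16.3 in H − N and 33.8, 24 and 27.3 in H + N. The 6 libraries with NCG were again above the other 6, while L − N and H − N overlapped. For CENPC the log2 fold change was 1.03 (SE 0.22, adjusted p = 0.0198).

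CENPU, on chromosome 15 from 45818562 to 45851461, belongs to the complex that recruits PLK1 to the centromere and had a CPM of 2.36, 3.14 and 2.42 in L − N, 4.90, 6.06 and 5.30 in L + N, 2.69, 5.20 and 2.28 in H − N and 5.60, 6.74 and 7.30 in H + N. Each NCG group lay above its own diet without NCG, but H − N replicate 2 exceeded the lowest L + N library. CENPU changed by 0.99 (SE 0.22, adjusted p = 0.0239), just short of 2-fold. Almost the whole of CENPU, 32491 bp, overlaps PRIMPOL on the opposite strand. CENPT, which anchors NDC80 complexes, had the largest change of the inner kinetochore at 1.28 (SE 0.31, adjusted p = 0.0327), and 3176 bp of it overlap TSNAXIP1. CENPK, a neighbor of CENPU in the constitutive network, changed by 1.03 (SE 0.19, adjusted p = 0.0115), and CENPN, which reads CENP-A nucleosomes, by 1.03 (SE 0.24, adjusted p = 0.0289). CENPK overlaps ADAMTS6 on the same strand over 2148 bp. CENPI, CENPL and CENPQ rose by less than 2-fold, with log2 fold changes of 0.50, 0.83 and 0.53. The other 5 genes, CENPH, CENPM, CENPO, CENPP and CENPW, did not pass, with values from -0.08 for CENPM to 0.69 for CENPO.

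In the outer kinetochore, 4 of 8 genes rose with NCG, and the subunits of the MIS12 complex were not among them. NDC80, on chromosome 6 from 104000794 to 104055785, encodes the microtubule-binding subunit of the NDC80 complex, and its CPM was 1.34, 3.57 and 1.61 in L − N, 9.90, 11.6 and 11.3 in L + N, 2.80, 4.44 and 6.48 in H − N and 7.58, 6.95 and 11.8 in H + N. Every library with NCG exceeded every library without it, while L − N and H − N overlapped. The change was 1.63 (SE 0.29, adjusted p = 0.00971) on the log2 scale. KNL1, on chromosome 1 from 130652493 to 130728989, the platform on which BUB1 and BUB1B assemble, was measured at 0.891, 5.52 and 1.21 in L − N, 10.9, 16.8 and 15.6 in L + N, 2.75, 3.26 and 5.59 in H − N and 10.9, 6.63 and 12.5 in H + N CPM. L − N replicates 1 and 3 were the lowest of all and L − N replicate 2 was close to the highest H − N library, yet none reached the NCG libraries. KNL1 changed by 1.94 (SE 0.41, adjusted p = 0.0183).

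The partners of NDC80 differed in their values: SPC25 rose by 0.83 (SE 0.18, adjusted p = 0.0198) and SPC24 by 0.88 (SE 0.23, adjusted p = 0.0447), while NUF2 was at 0.54 (SE 0.25, adjusted p = 0.222) and did not pass. SPC25 overlaps NOSTRIN on the opposite strand over 7731 bp. MIS12, on chromosome 12 from 51505376 to 51508337, had a CPM of 38.3, 41.3 and 34.9 in L − N, 31.3, 31.5 and 30.5 in L + N, 33.6, 37.1 and 34.8 in H − N and 32.4, 32.5 and 41 in H + N. Here L + N was the lowest group, with no library reaching any of L − N, and H + N replicate 3 was level with the highest L − N library. MIS12 was at -0.14 (SE 0.09, adjusted p = 0.336) with NCG and -0.30 (SE 0.12, adjusted p = 0.140) on the low-fiber diet, so it did not pass. DSN1 and NSL1, which form the same complex, had log2 fold changes of 0.33 and 0.11, and neither passed.

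CENPE and CENPF, which assemble on the outermost layer of the kinetochore, both rose, whereas ZWILCH, a subunit of the complex that recruits dynein, and ZWINT, which links that complex to the kinetochore, did not pass. CENPE, on chromosome 8 from 117888968 to 117965325, a kinesin that carries chromosomes towards the spindle equator, had a CPM of 1.91, 3.39 and 1.21 in L − N, 8.06, 19.6 and 13.3 in L + N, 2.54, 7.28 and 3.17 in H − N and 15.6, 7.06 and 9.87 in H + N. L + N lay above L − N without overlap, and on the high-fiber diet H − N replicate 2 was slightly above H + N replicate 2. NCG changed CENPE by 1.99 (SE 0.37, adjusted p = 0.0114) on the log2 scale, the largest value of the 58. CENPF, on chromosome 9 from 128948386 to 129012241, had a CPM of 4.33, 13.5 and 4.37 in L − N, 29, 46.2 and 40.4 in L + N, 11.8, 12.4 and 14.6 in H − N and 26.2, 32.4 and 30.3 in H + N. All libraries with NCG were at least at 26.2 CPM and none without NCG was above 14.6 CPM. NCG changed CENPF by 1.79 (SE 0.27, adjusted p = 0.00585). ZWINT was at 0.88 (SE 0.26, adjusted p = 0.0632) and ZWILCH at 0.47 (SE 0.14, adjusted p = 0.0726).

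The SKA complex, which tracks the ends of shrinking microtubules, had 1 of 3 subunits past the adjusted p. SKA3, on chromosome 11 from 1302880 to 1321132, had a CPM of 15, 15.2 and 10.008 in L − N, 21.1, 21 and 25.6 in L + N, 14.5, 16.2 and 16.5 in H − N and 20.5, 15.6 and 19.6 in H + N. L + N lay above L − N, but H + N and H − N overlapped. SKA3 passed the adjusted p with a log2 fold change of 0.49 (SE 0.13, adjusted p = 0.0467), and SKA1 and SKA2, at 0.51 and 0.38, did not.

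Among the 5 checkpoint genes, the kinases TTK and BUB1 and the anaphase inhibitor BUB1B rose more than 2-fold, MAD2L1 rose less, and BUB3 did not pass. BUB1, on chromosome 3 from 45585188 to 45623240, had a CPM of 3.25, 10.3 and 4.16 in L − N, 17.2, 18.4 and 24.1 in L + N, 12.7, 11.2 and 11.3 in H − N and 16.5, 17.9 and 20.1 in H + N. Both NCG groups lay above H − N, and H − N lay above L − N. BUB1B, on chromosome 1 from 131093026 to 131143840, had a CPM of 6.69, 15.4 and 6.92 in L − N, 27.3, 31.6 and 31.5 in L + N, 15.4, 14.6 and 19 in H − N and 26.8, 23.4 and 34.8 in H + N. NCG separated all libraries, while L − N replicate 2 fell among the H − N libraries. TTK, on chromosome 1 from 86076576 to 86125334, had a CPM of 1.66, 6.77 and 2.28 in L − N, 16.4, 18.3 and 21.9 in L + N, 6.58, 7.63 and 9.24 in H − N and 13.7, 13.7 and 17.6 in H + N. The same separation was seen, and L − N replicate 2 was well above its group mates. The log2 fold changes were 1.19 (SE 0.25, adjusted p = 0.0170) for BUB1, 1.22 (SE 0.21, adjusted p = 0.00901) for BUB1B and 1.67 (SE 0.29, adjusted p = 0.00971) for TTK.

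BUB3, on chromosome 14 from 132703088 to 132715353, which carries BUB1 and BUB1B to the kinetochore, was far more abundant, with a CPM of 109, 111 and 116 in L − N, 136, 128 and 129 in L + N, 141, 134 and 133 in H − N and 131, 125 and 149 in H + N. L − N was the lowest group without overlap, the other 3 groups overlapped, and the log2 fold change with NCG was 0.11 (SE 0.07, adjusted p = 0.345). MAD2L1, whose product is the core of the anaphase inhibitor, rose by 0.42 (SE 0.09, adjusted p = 0.0225).

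**Figure D2:**
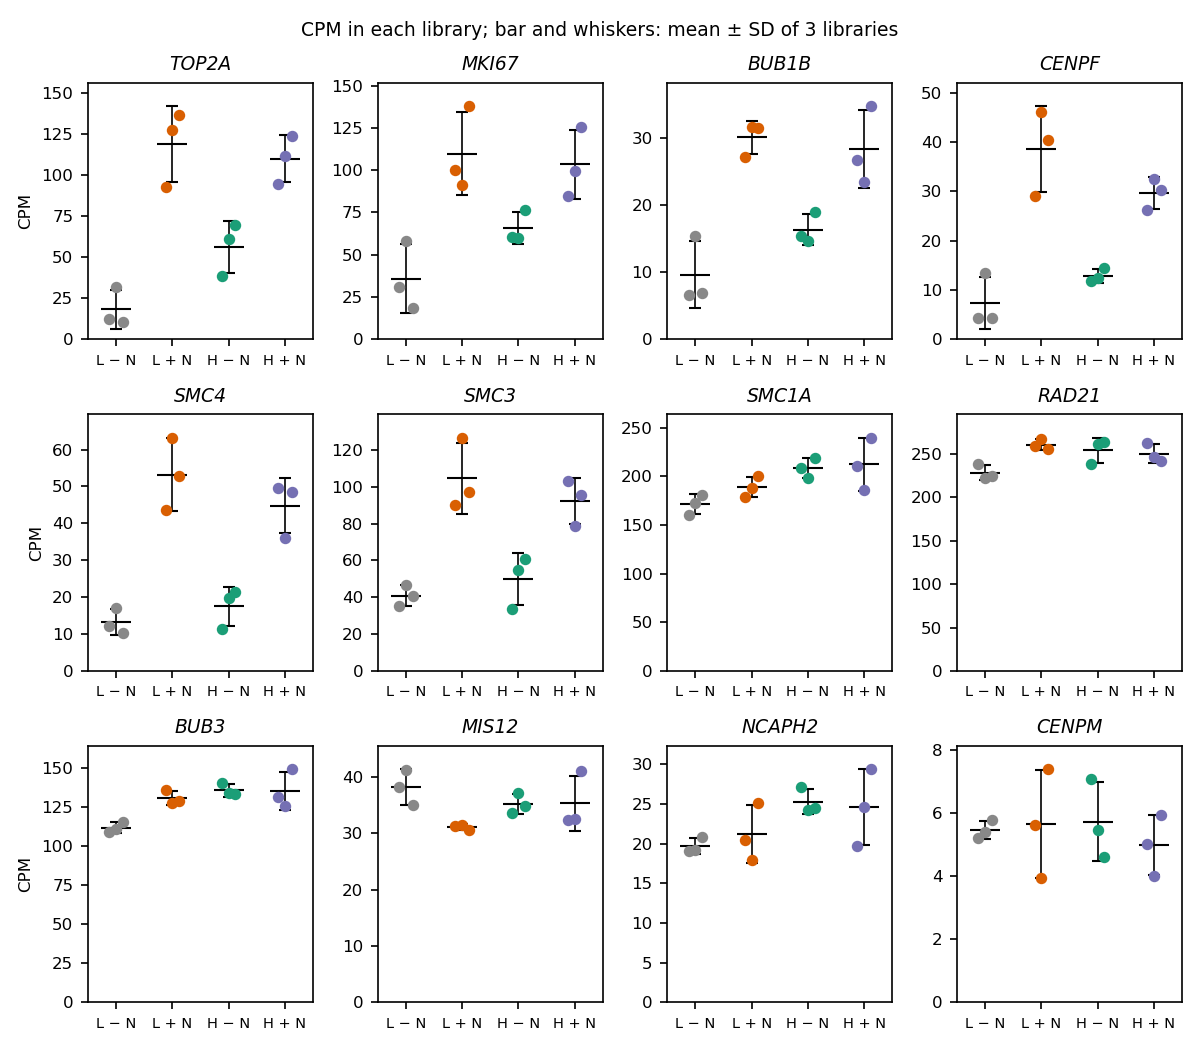
CPM of 12 of the genes in each library, with points for single libraries and a bar with whiskers for the mean ± SD of the 3 libraries of a group, on axes that start at 0. In the upper row and for SMC4 and SMC3 the L + N and H + N points lie above all points of L − N and H − N, while for SMC1A, RAD21, BUB3, MIS12, NCAPH2 and CENPM the H + N points overlap those of H − N.

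In condensin, 7 of 8 subunits rose with NCG by the adjusted p. The core ATPases SMC2 and SMC4 and NCAPG, a HEAT-repeat subunit of condensin I, rose more than 2-fold. SMC4, on chromosome 13 from 100078149 to 100120907, had a CPM of 12.3, 17.1 and 10.1 in L − N, 43.5, 63.2 and 52.9 in L + N, 11.3, 19.6 and 21.5 in H − N and 49.5, 36.1 and 48.6 in H + N. The lowest library with NCG was at 36.1 CPM and the highest without it at 21.5 CPM. SMC2, on chromosome 1 from 245409559 to 245459032, had a CPM of 7.39, 18 and 10.3 in L − N, 37, 48.4 and 47.6 in L + N, 9.90, 18.9 and 17.8 in H − N and 42.1, 29 and 39.7 in H + N. The ratio of the SMC2 CPM to the SMC4 CPM had group means between 0.823 and 0.892. Single L − N libraries spread more widely, at 0.601, 1.06 and 1.02. NCG changed SMC4 by 1.69 (SE 0.19, adjusted p = 0.00578) and SMC2 by 1.57 (SE 0.23, adjusted p = 0.00578). SMC4 overlaps TRIM59 on the opposite strand over 2084 bp.

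NCAPG, on chromosome 8 from 12759225 to 12807164, had a CPM of 6.37, 9.47 and 4.30 in L − N, 18.7, 20.8 and 21.3 in L + N, 6.79, 11.5 and 12.5 in H − N and 15.2, 16 and 17.6 in H + N. Each L + N library exceeded each H + N library, and both groups lay above all libraries without NCG, with a log2 fold change of 1.13 (SE 0.20, adjusted p = 0.0105). NCAPG overlaps DCAF16 on the opposite strand. The other condensin I subunits NCAPD2 and NCAPH changed by 0.67 and 0.94, and NCAPD3 and NCAPG2 of condensin II by 0.49 and 0.76, all past the adjusted p. NCAPH2, the kleisin of condensin II, was the exception. On chromosome 5 from 222784 to 233491, it had a CPM of 19, 19.2 and 20.8 in L − N, 20.4, 18 and 25.2 in L + N, 27.2, 24.3 and 24.5 in H − N and 19.8, 24.6 and 29.4 in H + N. L + N and L − N overlapped, as did H + N and H − N, whereas H − N lay above L − N. With NCG, NCAPH2 was at 0.03 (SE 0.12, adjusted p = 0.90).

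Of the 3 subunits of the cohesin ring, SMC3 rose with NCG, and SMC1A and RAD21 did not pass. SMC3, on chromosome 14 from 120969629 to 121008924, had a CPM of 35.1, 46.7 and 40.9 in L − N, 90.1, 127 and 97 in L + N, 33.7, 54.6 and 60.7 in H − N and 103, 78.6 and 95.5 in H + N. All 6 libraries with NCG were above all 6 without it. SMC1A, on chromosome X from 46143738 to 46202187, its partner in the ring, had a CPM of 161, 173 and 181 in L − N, 179, 188 and 200.1 in L + N, 209, 199 and 219 in H − N and 211, 186 and 239.8 in H + N. L + N overlapped L − N and H + N overlapped H − N. RAD21, on chromosome 4 from 21772821 to 21802453, the kleisin that closes the ring, had a CPM of 239, 223 and 225 in L − N, 259.6, 267 and 256 in L + N, 238, 261 and 264 in H − N and 263, 246 and 242 in H + N. L + N lay above L − N by a small margin, and H + N overlapped H − N. The log2 fold change with NCG was 1.13 (SE 0.15, adjusted p = 0.00578) for SMC3, 0.08 (SE 0.08, adjusted p = 0.566) for SMC1A and 0.08 (SE 0.07, adjusted p = 0.479) for RAD21.

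As a description chosen after the values were seen, the ratio of the SMC3 CPM to the RAD21 CPM was 0.180 ± 0.0316 for L − N, 0.40 ± 0.0656 for L + N, 0.193 ± 0.0460 for H − N and 0.369 ± 0.0431 for H + N (mean ± SD, n = 3). The ratio of SMC1A to RAD21 was between 0.726 and 0.850 in the group means. Thus, within the same libraries SMC3 and RAD21 changed unequally.

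SGO2, on chromosome 15 from 104099378 to 104150723, which protects centromeric cohesin, had a CPM of 1.72, 2.63 and 1.21 in L − N, 7.96, 15.1 and 10.5 in L + N, 2.38, 3.95 and 3.52 in H − N and 7.71, 7.39 and 9.26 in H + N. Libraries with NCG did not overlap those without it, and L + N replicate 2 was the highest. The change was 1.95 (SE 0.24, adjusted p = 0.00578), and that of SGO1, its mitotic relative, was 1.76 (SE 0.33, adjusted p = 0.0122). PTTG1, on chromosome 16 from 63104698 to 63112382, encodes securin, the inhibitor of separase, and had a CPM of 2.16, 8.90 and 2.08 in L − N, 8.10, 10.7 and 10.5 in L + N, 8.70, 5.89 and 7.93 in H − N and 7.65, 9.67 and 11.6 in H + N. L − N replicate 2 was level with the other groups while the other L − N libraries were near 2 CPM. PTTG1 was at 0.76 (SE 0.34, adjusted p = 0.20) and ESPL1 at 1.04 (SE 0.32, adjusted p = 0.0774), and neither passed.

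None of the 7 genes of the chromosomal passenger complex and the mitotic kinases rose more than 2-fold over both diets, and AURKB, AURKA, PLK1 and TPX2 rose by the adjusted p. AURKB, on chromosome 12 from 53410833 to 53426165, the kinase that corrects wrong attachments, had a CPM of 10.1, 10.8 and 7.19 in L − N, 20.6, 18.4 and 15.8 in L + N, 12.2, 9.02 and 12.1 in H − N and 16.7, 13.1 and 15.8 in H + N. The libraries with NCG were above the others, the narrowest gap being that between H + N replicate 2 and H − N replicate 1. PLK1, on chromosome 3 from 22537814 to 22550901, the polo-like kinase of centrosome and kinetochore, had a CPM of 7.07, 9.15 and 3.09 in L − N, 15.7, 16 and 21.3 in L + N, 8.91, 11.8 and 12.8 in H − N and 13.6, 13.7 and 17.4 in H + N. It showed the same separation by NCG, and L − N and H − N overlapped. The log2 fold changes were 0.70 (SE 0.15, adjusted p = 0.0170) for AURKB and 0.94 (SE 0.23, adjusted p = 0.0333) for PLK1. AURKA and TPX2, the spindle kinase and its activator, changed by 0.74 and 0.93.

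BIRC5, on chromosome 12 from 3747276 to 3755214, encodes survivin, the subunit that docks the passenger complex on the centromere, and had a CPM of 7.96, 13.5 and 4.97 in L − N, 18.6, 12.2 and 22.2 in L + N, 12.7, 11.9 and 10.001 in H − N and 12.9, 14.8 and 17.1 in H + N. L − N replicate 2 exceeded L + N replicate 2, so the groups overlapped on the low-fiber diet. BIRC5 was at 0.68 (SE 0.23, adjusted p = 0.102) and did not pass. INCENP, the scaffold of the complex, and CDCA8, which binds BIRC5, did not pass either, with log2 fold changes of 0.37 and 0.95.

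On the low-fiber diet alone, NCG raised 25 members more than 2-fold in L + N against L − N, with TOP2A, CENPE and SGO2 at the top and SPC25, AURKA and CENPC at the lower end of those called. The log2 fold change was 2.70 (SE 0.39, adjusted p = 0.00818) for TOP2A, 2.65 (SE 0.53, adjusted p = 0.0150) for CENPE and 2.58 (SE 0.35, adjusted p = 0.00818) for SGO2. It was 1.03 (SE 0.25, adjusted p = 0.0305) for SPC25, 1.15 (SE 0.26, adjusted p = 0.0217) for AURKA and 1.19 (SE 0.31, adjusted p = 0.0384) for CENPC. The 25 included all of the 20 members called over both diets, and NCAPH, SPC25, AURKA, PLK1 and TPX2. By the adjusted p alone 34 members rose, none fell, and the median was 1.03 against -0.02 for all genes tested. Among all genes tested, 3.32% were called higher and 0.671% lower, and by the adjusted p alone 5.97% rose and 3.63% fell. In 49 members the 3 L + N libraries lay above the 3 L − N libraries, and in 1, MIS12, they lay below, compared with 18% and 17.2% of all genes tested.

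The number called in L + N against L − N depended on single libraries: 8 members were called when replicate 3 of L − N was left out, 15 when it was replicate 2 of L + N and 32 when it was replicate 2 of L − N. Over all genes 613 were called with every library, and 143, 183 and 543 in these fits. CENPA, CENPF, SMC4, NCAPG, SMC3, SGO2 and TOP2A were called whichever library was left out. Within L − N, replicate 2 was the highest of its group for 49 of the 58 members. The summed CPM of the members was 1269 in this library, and 1032 and 1009 in L − N replicates 1 and 3, compared with a range of 1354 to 1492 for H − N, 1756 to 2065 for L + N and 1700 to 2034 for H + N. With L − N replicate 2 left out, the median log2 fold change of L + N against L − N was 1.39.

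On the high-fiber diet, most members had higher means with NCG, but none passed the adjusted p. Of the 58, 54 had a positive log2 fold change in H + N against H − N, with a median of 0.47 against 0.01 for all genes tested. The values were 1.36 (SE 0.26, adjusted p = 0.451) for SMC4, 1.31 (SE 0.33, adjusted p = 0.451) for SGO2, 1.25 (SE 0.32, adjusted p = 0.451) for SMC2, 1.20 (SE 0.37, adjusted p = 0.474) for CENPF and 0.97 (SE 0.37, adjusted p = 0.535) for TOP2A. Across all genes, 0% were called in edgeR's test. At an unadjusted p under 0.05, 21 members were counted, compared with 1331 of all 15351 genes, and DESeq2 called 2 members and 25 genes in all. In 32 members the H + N libraries lay above the H − N libraries, compared with 7.82% of all genes tested.

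The difference between the 2 effects of NCG was tested as an interaction. It was negative for 55 of the 58 members, with a median of -0.61 against -0.01 for all genes tested, and no member passed. The interaction was -1.73 (SE 0.52, adjusted p = 0.275) for TOP2A, with a 95% interval from -2.88 to -0.58 on the log2 scale. For CENPA it was -1.28 (SE 0.46, adjusted p = 0.310), and for SMC4 -0.66 (SE 0.37, adjusted p = 0.488) with an interval from -1.46 to 0.15. The lowest adjusted p was 0.270, for CENPQ, 14 members and 1967 of all 15351 genes were below an unadjusted p of 0.05, and DESeq2 called 0 members and 184 genes in all. In edgeR's test, 0% of all genes were called. Thus, a smaller change under the high-fiber diet was not shown for any member.

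**Figure D3:**
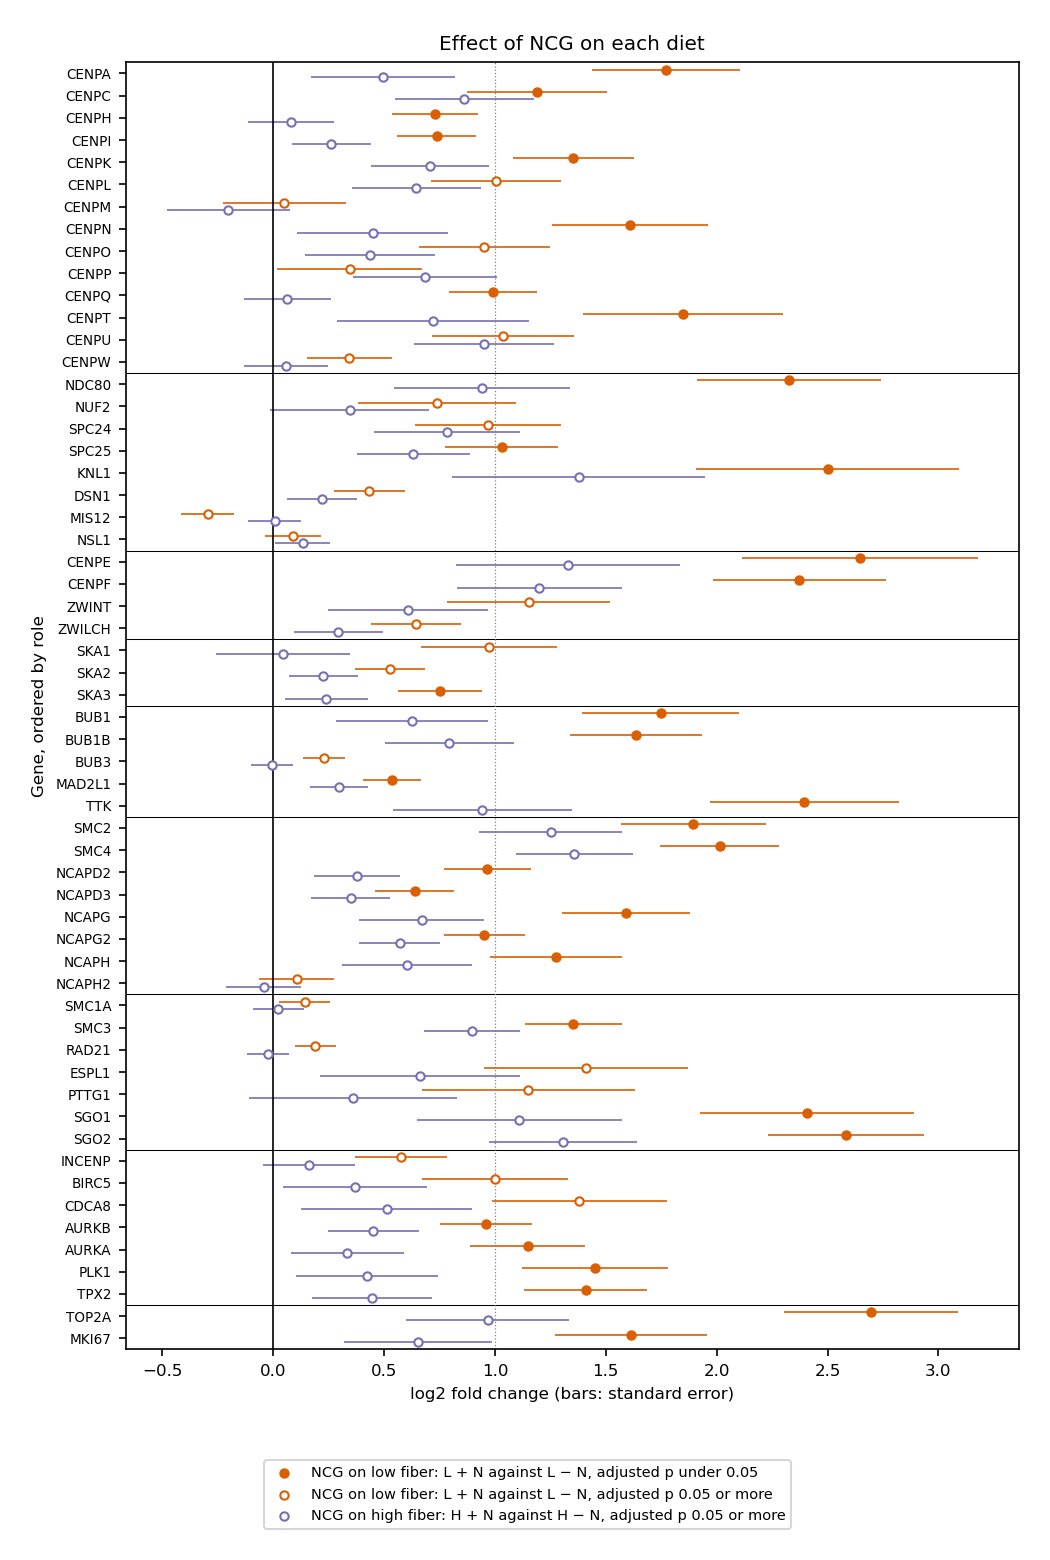
Log2 fold change with NCG (horizontal axis) of each of the 58 genes, ordered by role, on the low-fiber diet (L + N against L − N, orange) and on the high-fiber diet (H + N against H − N, violet), with bars for the standard error, filled points for an adjusted p under 0.05 and a dotted line at a log2 fold change of 1. For 55 of the 58 genes the orange point lies to the right of the violet one, and no gene passed the test of that difference.

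Over both NCG levels, no member passed the test for DF, with a median of 0.18 against 0.02 for all genes and 52 positive values. The largest was that of TOP2A, at 0.75 (SE 0.26, adjusted p = 0.156). At an unadjusted p under 0.05, 8 members and 2994 of all genes were counted, DESeq2 called 0 members and 290 genes in all, and 0.0261% of all genes were called in edgeR's test (0.0521% by the adjusted p alone). With NCG in the diet, H + N against L + N had a median of -0.11 against 0.01 for all genes, with 17 positive members. No member passed, 0 had an unadjusted p under 0.05 (719 among all genes), DESeq2 called 0 members and 2 genes in all, and edgeR's test called 0% of all genes. For TOP2A the difference between H + N and L + N was -0.11 (SE 0.36, adjusted p = 0.978) with a 95% interval from -0.91 to 0.69, and for SMC3 -0.18 (SE 0.21, adjusted p = 0.953) with an interval from -0.65 to 0.29.

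Without NCG, H − N against L − N had 55 positive members and a median of 0.45 against 0.03 for all genes tested. TOP2A was the only member called, with a log2 fold change of 1.62 (SE 0.38, adjusted p = 0.0372), and 0.892% of all genes were called higher and 2.01% lower (1.56% and 3.71% by the adjusted p alone). The H − N libraries were above the L − N libraries in 17 members, compared with 12.8% of all genes tested. The next largest values were 1.24 (SE 0.45, adjusted p = 0.122) for CENPT, 1.12 (SE 0.42, adjusted p = 0.131) for TTK and 1.07 (SE 0.33, adjusted p = 0.0832) for CENPA. The call of TOP2A was lost on leaving out any 1 library of H − N or replicate 3 of L − N. Over all genes, 446 were called with every library. The count was 0, 165 and 159 without H − N replicates 1, 2 and 3, and 6 without L − N replicate 3. TOP2A also lost its call without replicate 2 or 3 of L + N or replicate 1 of H + N, with 304, 328 and 300 genes called. With replicate 2 of L − N left out, 12 members and 122 of all genes were called. The log2 fold change of TOP2A lay between 1.34 and 2.30 in these fits.

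The combined diet against the basal control, H + N against L − N, raised 24 members more than 2-fold, and 2.29% of all genes were called higher and 1.28% lower. TOP2A, CENPE and SGO2 led with log2 fold changes of 2.59 (SE 0.39, adjusted p = 0.0136), 2.31 (SE 0.53, adjusted p = 0.0290) and 2.12 (SE 0.35, adjusted p = 0.0156). The lowest of the called values were 1.02 (SE 0.20, adjusted p = 0.0196) for NCAPD2, 1.03 (SE 0.18, adjusted p = 0.0168) for NCAPG2 and 1.18 (SE 0.22, adjusted p = 0.0182) for SMC3. Condensin had 6 of 8 members called, the checkpoint 3 of 5, the inner kinetochore 5 of 14 and the outer kinetochore 1 of 8. By the adjusted p alone 28 members rose and none fell, compared with 4.31% and 3.66% of all genes, and the median was 0.98 against 0.02 for all genes. In 49 members the H + N libraries lay above the L − N libraries, compared with 15.2% of all genes tested. KNL1 was at 1.97 (SE 0.59, adjusted p = 0.0607) and did not pass.

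The number called in H + N against L − N depended on single libraries. Leaving out replicate 3 of L − N, or replicate 1 of H + N, left 0 members called, leaving out replicate 3 of H + N left 5, and the number was 29 once replicate 2 of L − N was dropped. The number of all genes called was 549 with every library and 4, 1, 186 and 342 in these fits, and the median of the members was 0.88, 1.05, 0.86 and 1.20. In a fit to the H + N and L − N libraries alone, 2 were called. The log2 fold change of TOP2A stayed between 2.31 and 3.27 without single libraries, and that of SMC4 between 1.61 and 1.99. The comparisons of L + N, of H − N and of H + N with L − N share the 3 L − N libraries, and their values are not independent.

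The group means were ordered alike for many members. L − N was the lowest group for 54 of the 58, compared with 34.3% of all genes tested, and L + N was the highest for 40, compared with 22.7%. The order L − N, H − N, H + N, L + N was found for 38 members and in 10.1% of all genes tested, and the order with L + N and H + N exchanged for 12 and in 5.28%. Neighbours at the upper end, H + N and L + N, did not pass the test for any member.

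Levels of different genes were compared per length, in the FPKM deposited by the authors. RAD21, BUB3, SMC1A, SMC3 and MAD2L1 were the most abundant members, with means over all libraries of 67.6, 46.3, 18.0, 17.5 and 15.8 FPKM, and CENPE and KNL1 were among the least, at 0.897 and 0.870 FPKM. Of the members at the top, SMC3 and MAD2L1 rose with NCG by the adjusted p, and RAD21, BUB3 and SMC1A did not pass.

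Members with long transcripts had larger changes, and so did the genes tested as a whole. Over 5 classes of gene length with equal numbers of genes, from the shortest to the longest, the share of all genes that rose with NCG by the adjusted p was 1.27%, 2.41%, 4.07%, 7.23% and 13.4%. Across genes, Spearman's rho of the log2 fold change with length was 0.27 over all 15351 genes and 0.34 over the 58 members. Genes share libraries and are not independent replicates, and these values are descriptions. SMC1A and MKI67 are the longest members and differ in their response, SMC1A at 0.08 and MKI67 at 1.13. With the trend over length removed, 22 members were called with NCG, 29 in L + N against L − N and 23 in H + N against L − N, and the median with NCG was 0.80. Over all genes, 213, 534 and 505 were called in these comparisons, and 276, 613 and 549 with the trend kept.

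**Figure D4:**
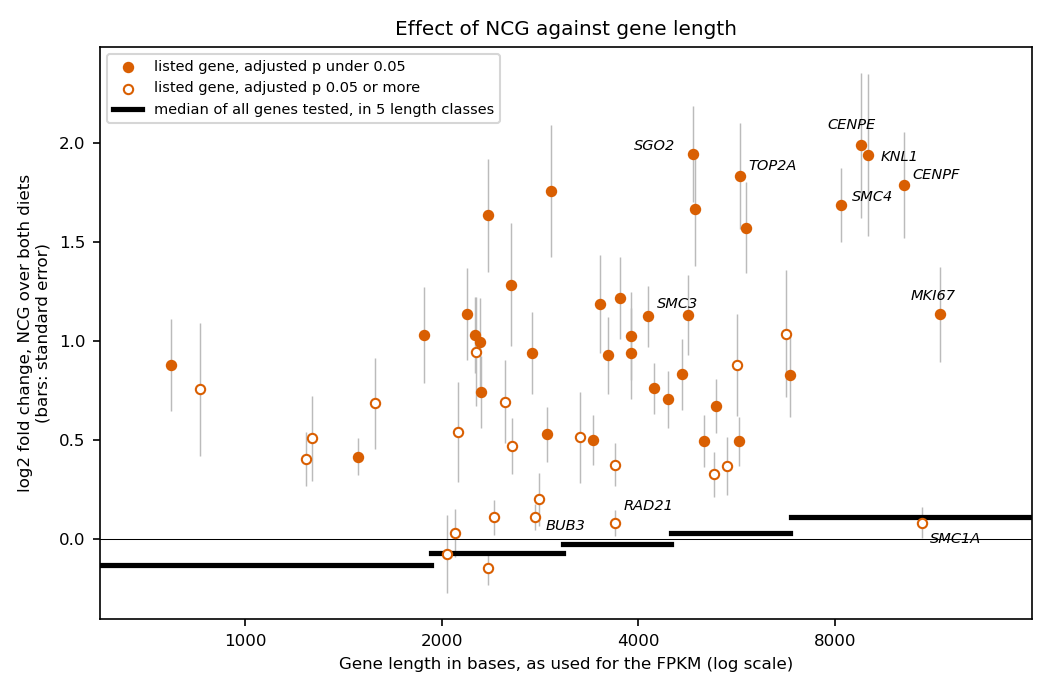
Log2 fold change with NCG over both diets (bars, standard error) against gene length in bases on a log axis for the 58 genes, filled where the adjusted p was under 0.05, with horizontal bars at the median of all genes tested in each of 5 length classes. The medians of all genes rise from -0.13 in the shortest class to 0.11 in the longest, and most of the listed genes lie above them at every length, while RAD21, BUB3 and SMC1A lie near them.

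Another 3 lists of mitotic genes were counted in the same fit. Among all genes tested, 1.67% were called higher with NCG, and 5.67% rose with NCG by the adjusted p alone. The share called higher was 3.32% in L + N against L − N and 2.29% in H + N against L − N. Of 13 measured genes for other kinetochore proteins and the loading of CENP-A, 3 rose with NCG more than 2-fold. Among them were KNTC1, the largest subunit of the dynein-recruiting complex, at 1.68 (SE 0.31, adjusted p = 0.0114), and AHCTF1, which joins nuclear pores to chromatin, at 1.01 (SE 0.15, adjusted p = 0.00578). The list had 3 called in H + N against L − N as well, and 6 in L + N against L − N.

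Of 22 genes for checkpoint regulators and the anaphase-promoting complex, none was called with NCG, and FBXO5, an inhibitor of that complex, and UBE2C, its ubiquitin-conjugating enzyme, rose by the adjusted p. In H + N against L − N both were called, FBXO5 at 1.06 (SE 0.22, adjusted p = 0.0229) and UBE2C at 1.42 (SE 0.33, adjusted p = 0.0307). The median of this list with NCG was 0.08, compared with 0.83 for the members.

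Of 12 measured cohesin regulators and SMC5/6 genes, 4 were called with NCG and 9 rose by the adjusted p. CDCA5, or sororin, which stabilizes cohesin, was at 1.36 (SE 0.27, adjusted p = 0.0161), and the cohesin acetyltransferase ESCO2 at 1.22 (SE 0.27, adjusted p = 0.0233). SMC5, of the complex that resolves DNA repair intermediates, was at 1.14 (SE 0.16, adjusted p = 0.00578), and the cohesin loader NIPBL at 1.03 (SE 0.16, adjusted p = 0.00708). The list had 7 called in L + N against L − N and 3 in H + N against L − N. No gene of the 3 lists was called lower in any of these comparisons.

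Markers of other cell types also moved between the groups. All 5 macrophage markers were called lower in H − N against L − N, 3 in H + N against L − N and 2 in L + N against L − N. Their summed CPM was 620 to 1849 for L − N, 515 to 733 for L + N, 319 to 465 for H − N and 508 to 634 for H + N. L − N replicate 2, with the highest level of most members in its group, and L − N replicate 3, with the lowest level of many, were both near the upper end. The summed CPM of 5 epithelial markers was 948 to 1342 for L − N, 1331 to 1398 for L + N, 1434 to 2150 for H − N and 1120 to 1209 for H + N, and none was called in any comparison. Of 6 stromal markers, VIM was called lower in both high-fiber groups against L − N. Of the same 6, 3 had a positive log2 fold change in H − N and 4 in H + N, each against L − N. The stromal sums were 22372 to 27313 for L − N, 22274 to 38669 for L + N, 28725 to 50566 for H − N and 27923 to 48032 for H + N.

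The 5 smooth muscle markers summed to 1197 to 4311 CPM in L − N and 744 to 1376 in the other groups, and ACTA2 was called lower in L + N against L − N. The 5 endothelial markers summed to 1066 to 1559 for L − N and 753 to 915 for L + N, with 1 called lower in that comparison. Of the lists for T and NK cells, B and plasma cells and neutrophils, no marker was called in any comparison. The red cell markers summed to 62.6 to 753 for L − N and 26.5 to 81.9 in L + N, with 1 of 3 tested called lower. Of the trophoblast markers, 3 of 5 passed the filter and 1 was called higher in H + N against L − N. Among the endometrial markers, HOXA10, a regulator of endometrial differentiation, had a CPM of 90.1 ± 12.5 for L − N, 273 ± 78.2 for L + N, 176 ± 33.8 for H − N and 259 ± 75.3 for H + N (mean ± SD, n = 3). The 3 endometrial markers given by value, HOXA10, the estrogen receptor ESR1 and the progesterone receptor PGR, are those called in H + N against L − N. ESR1 and PGR were picked from the 8 listed markers after their values were seen. With NCG, 4 of the 8 endometrial markers had a positive log2 fold change, with a median of 0.13. None of the 5 epithelial markers was positive with NCG. In H + N against L − N, 7 of the 8 endometrial markers were positive, with a median of 0.69. ESR1 was at 449.8 ± 63.1 CPM for L − N, 876 ± 118 for L + N, 811 ± 211 for H − N and 1069 ± 208 for H + N. It passed the adjusted p with NCG, at 0.68 (SE 0.15, adjusted p = 0.0233), in L + N against L − N and in H − N against L − N, and was called in H + N against L − N at 1.25 (SE 0.22, adjusted p = 0.0161). HOXA10 was called with NCG, at 1.08 (SE 0.18, adjusted p = 0.00836), and in L + N and in H + N against L − N. PGR was at 32.9 ± 5.92, 44.2 ± 12.3, 51 ± 3.34 and 74 ± 39.8 CPM in the same order of groups, with 1 H + N library at 119 CPM, and was called in H + N against L − N at a log2 fold change of 1.17 (SE 0.32, adjusted p = 0.04997). The part of these shifts in the levels of the mitotic genes was not tested.

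Of the 58 members, 16 overlap another gene in the annotation. The libraries were strand-specific, but whether the counting used the strand is not given in the sources used here, and reads of these members and their neighbours may not be separated. CENPP overlaps 5 genes, among them OGN, ASPN and OMD, on the opposite strand, and did not pass. All 58 members have the start and end of the RefSeq annotation of Sscrofa11.1.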

How the data were processed

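Endometrial RNA of 12 libraries, 3 per diet, was analysed. Groups and replicate numbers were taken from the sample titles. Per the study's methods, RNA was extracted with Trizol and strand-specific poly(A) libraries were sequenced in pairs. The submitters' processing notes name fastp 0.22.0, HISAT2 2.1.0 and HTSeq 0.9.1 with Sscrofa11.1. The deposited table holds raw counts per gene, and FPKM values that the authors derived from them by gene length and library size. Columns of per-sample values not used numbered 0.

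Counts were analysed in R 4.3.3 with edgeR 4.0.16 (filterByExpr, TMM, 1 mean per group, quasi-likelihood F test with 8 residual degrees of freedom, contrasts of group means, Benjamini-Hochberg adjustment over 15351 genes). The biological coefficient of variation was 0.269, and at the lowest count of a member, 13, the counting error alone has a coefficient of variation of 0.277. Log2 CPM used a prior count of 2. FPKM served only to compare levels between genes. The scripts were tested on simulated data. Alternatives were DESeq2 1.42.0, RLE factors, no filter, fits of 2 groups, a replicate block and leaving out each library. Removal of a trend over gene length was added after the data were seen.

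The members, roles, 3 other gene lists, 10 cell type marker lists and the endometrial markers were chosen with earlier results of these data known, and no list was tested as a set. Named genes are 27 members fixed by role, in each comparison 3 called members at each end of the ranking by log2 fold change, and of the other lists the 2 highest and 2 lowest called. KRT7, CENPS, ITGB3BP and PDS5A were not matched by name. A planned count of promoter motifs was not run. One called gene of the other lists is not reported here.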

Additional observations from a re-analysis of the deposited data

How the results depend on the processing

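The number of members called with NCG over both diets was 20 to 22 under DESeq2, RLE factors, no filter, the replicate block and the removal of the trend over gene length (an alternative chosen after seeing the data), and 16 to 29 without single libraries. Over all genes, 276 were called in the main fit, 213 to 355 under these alternatives and 157 to 340 without single libraries. For L + N against L − N, 25 to 29 members were called under these alternatives and 19 in the fit of the 2 groups. Without single libraries, 8 (L − N replicate 3 left out) to 32 were called, and the member median log2 fold change was 0.94 to 1.39. The counts over all genes were 534 to 883, 537 and 143 to 911, and 613 in the main fit. For H + N against L − N, 23 to 28 members were called, 2 in the fit of the 2 groups and 0 to 29 without single libraries. The counts over all genes were 397 to 988, 87 and 1 to 948, and 549 in the main fit. For H − N against L − N, 3 members were called with DESeq2, 0 in the fit of the 2 groups and 0 to 12 without single libraries. The counts over all genes were 913, 3 and 0 to 1120, and 446 in the main fit. For H + N against H − N, 2 members were called with DESeq2, when 25 of all genes were called, and 0 otherwise. For DF, the interaction and H + N against L + N, 0 members were called throughout. The genes of the other mitotic lists called were 7 with NCG, 4 to 13 without single libraries, and 8 in H + N against L − N, 2 in the fit of the 2 groups and 0 to 14 without single libraries. The causes of these differences were not tested.

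Titles give the groups the same replicate numbers. Deviations from the group means correlated from -0.32 to 0.28 over 18 same-numbered pairs, with a median of -0.04 and 3 above 0.1. Over 36 pairs with other numbers the median was 0.03, with 8 above 0.1. Same-numbered libraries were thus no more alike by this measure, which cannot show whether they share a batch. With the replicate block, 20 members were called with NCG, 25 in L + N against L − N, 23 in H + N against L − N, 1 in H − N against L − N and 0 in the others, and 27 rather than 36 passed the adjusted p with NCG.

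No member past the adjusted p changed direction under any alternative. Of the 58 members, direction changed under at least 1 alternative for 3 with NCG, 17 with DF, 4 in the interaction, 3 in L + N against L − N, 10 in H + N against H − N, 8 in H − N against L − N, 23 in H + N against L + N and 0 in H + N against L − N, and no changed value passed the adjusted p. The values of the genes named by role follow. With the length trend removed, SMC1A was at -0.0905 with NCG, -0.0812 in L + N against L − N and -0.0997 in H + N against H − N, BUB3 at 0.0231 and NCAPH2 at 0.000283 in the last. Without single libraries, NCAPH2 ranged from -0.0428 to 0.0963 with NCG, from -0.0229 to 0.21 in L + N against L − N and from -0.191 to 0.0794 in H + N against H − N, where MIS12 ranged from -0.116 to 0.0575, BUB3 from -0.0827 to 0.0426, SMC1A from -0.0735 to 0.108 and RAD21 from -0.0703 to 0.0035. In H − N against L − N, CENPC ranged from -0.257 to 0.376 and CENPU from -0.0819 to 0.575. Depth limits the members that are low in L − N: at the lowest counts of SGO1, KNL1, CENPT, CENPE and SGO2, 13 to 18, the counting error has a coefficient of variation of 0.236 to 0.277, close to the biological 0.269.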

Other observations

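A few further ratios between members, chosen after their values were seen and not tested, are given as values. The ratio of the TOP2A CPM to the MKI67 CPM was 0.507 ± 0.0941 for L − N, 1.10 ± 0.255 for L + N, 0.853 ± 0.194 for H − N and 1.07 ± 0.0749 for H + N (mean ± SD, n = 3). The ratio of NCAPH, the kleisin of condensin I, to NCAPH2, that of condensin II, was 0.400 ± 0.202 for L − N, 0.902 ± 0.148 for L + N, 0.510 ± 0.0757 for H − N and 0.792 ± 0.0312 for H + N. The ratio of NCAPD2 to NCAPD3, another pair of condensin I and II subunits, was 0.915 ± 0.142, 1.16 ± 0.178, 1.14 ± 0.0816 and 1.16 ± 0.0486 in the same order of groups.

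In some groups a single library was the highest or the lowest for most members, and the same counts were not made over all genes. H + N replicate 3 was the highest of its group for 42 of the 58 members and L + N replicate 1 the lowest of its group for 42, while in H − N the highest library was replicate 1 for 18 members, replicate 2 for 18 and replicate 3 for 22.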
